A study of Mus musculus with 9 samples.

Results

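The transcriptomes of CD49f-high and CD49f-neg dermal cells of newborn mice were compared across genes, with most room given to the transcription factors, receptors and secreted factors that lie outside the usual cell type markers. The comparison took 6 of 9 libraries, CD49f-high 1 to 3 and CD49f-neg 1 to 3. It took 20523 of 84809 deposited gene rows, namely those with at least 1 FPKM (fragments scaled to transcript length and to the fragments mapped in the library) in at least 3 of the 9 libraries. Of the rows tested, 12852 carried a gene symbol, 962 of these carried 2 or more symbols and are uncertain as to the gene measured, and 7671 carried none. The mice carried a Krt14 cre transgene, in which the keratin 14 promoter of basal keratinocytes drives Cre recombinase, together with the Rosa26-mTmG reporter, whose membrane fluorophore switches in cells with a history of Cre. Both gates came from the same genotype, were described as dermal mesenchymal cells isolated directly without culture, and differed by the signal for CD49f at the sort. The labels do not say how the reporter entered the sort, how many mice were pooled, or whether replicates 1 to 3 came from separate animals. The p-values below therefore weigh the difference between gates against the spread of libraries within gates over all 9 libraries, which may be technical.

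CD49f is the integrin α6 subunit, which pairs with a β subunit to bind laminin, the scaffold protein of basement membranes. Cells that rest on or are wrapped in a basement membrane carry it, among them basal keratinocytes, endothelial cells, Schwann cells, and the pericytes and smooth muscle cells of vessel walls, whereas interstitial fibroblasts of the dermis usually carry little. Transcription factors set which of these programmes a cell runs, receptors set which signals it can answer, and secreted factors are what it offers to its neighbours.

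The sorted antigen was measured first. Itga6, which encodes CD49f (GRCm38 chromosome 2, 71745616 to 71858416), stood at 15.9, 19.6 and 24.1 FPKM in CD49f-high 1 to 3 and at 0.710, 0.433 and 0.283 FPKM in CD49f-neg 1 to 3. The difference was 3.81 log2 units (SE 0.18, limma adjusted p = 3.09e-06), and the groups did not overlap. All differences below are CD49f-high minus CD49f-neg of log2(FPKM + 1) values, a scale on which folds of weakly expressed genes come out too small, and all adjusted p-values are from limma over the 20523 rows. Summed FPKM per library ranged from 423745 to 543842 over the 9 libraries, and the 10 most abundant rows held 47.5% to 61.3% of the sum. The lowest values of 3027 single-exon genes put 1 FPKM over 1 kilobase at 24.3 to 27.2 fragments, so a value of 1 FPKM for a 1 kilobase transcript rests on that many fragments.

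The labelled cell type was then checked against marker genes. Fibroblast markers were the most abundant list in both gates and fell: 16 of 19 tested members were lower in CD49f-high, none was higher, and their summed level was 4493 to 6646 FPKM in CD49f-high against 15112 to 18262 in CD49f-neg. Markers of the vessel wall rose. Of 15 pericyte markers 13 were higher and 1 lower, with summed levels of 1297, 782 and 1060 FPKM in CD49f-high 1 to 3 against 172 to 206 in CD49f-neg. Of 14 tested smooth muscle markers 13 were higher and none lower, with 944, 558 and 599 against 66.0 to 94.5 FPKM. Of 18 tested Schwann cell markers 14 were higher and none lower, with 148, 390 and 447 against 93.2 to 115 FPKM. The CD49f-neg sum came mostly from Pmp22, a membrane protein that other cell types also express, which stood at 65.6, 91.6 and 88.4 FPKM in CD49f-neg and 54.7, 82.1 and 72.9 in CD49f-high and was not called (-0.23, adjusted p = 0.439), while 13 to 15 of the 21 members in the table were under 1 FPKM in each CD49f-neg library.

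Markers of other cell types were also measured. Adipocyte markers summed to 473, 49.3 and 37.3 FPKM in CD49f-high 1 to 3 against 14.2 to 33.3 in CD49f-neg, and dermal papilla markers to 84.2 to 123 against 226 to 279 FPKM. Keratinocyte markers summed to 53.3, 62.6 and 28.5 FPKM in CD49f-high 1 to 3 against 3.27 to 3.83 in CD49f-neg, with 11 of 11 tested members higher. Lymphatic endothelial markers summed to 26.6 to 43.0 against 12.7 to 18.5 FPKM (5 of 6 higher, 1 lower), blood endothelial markers to 38.4 to 56.1 against 17.7 to 20.2 FPKM (4 of 9 higher, 1 lower), skeletal muscle markers to 41.4 to 67.4 against 4.44 to 5.84 FPKM (4 of 7 higher, and 2 without CD49f-neg 1, CD49f-neg 3, CD49f-low 2, CD49f-high 1 or CD49f-high 2) and melanocyte markers to 26.2 to 44.6 against 6.45 to 6.55 FPKM (6 of 12 higher). Most of the skeletal muscle sum was Des, which encodes desmin and is on the pericyte list too (54.3, 28.2 and 45.0 FPKM in CD49f-high 1 to 3), and the myogenic factor Myod1 reached at most 0.182 FPKM in CD49f-high. The endothelin receptor gene Ednrb held 10.2, 25.6 and 21.9 FPKM of the melanocyte sums of 26.2, 44.6 and 31.2 in CD49f-high 1 to 3. Among endothelial markers, the cadherin Cdh5 stood at 3.995, 4.36 and 7.56 FPKM in CD49f-high 1 to 3 against at most 0.189 in CD49f-neg (2.51, adjusted p = 4.3e-05), and the lymphatic receptor Lyve1 at 8.10, 3.19 and 10.9 against at most 0.0915 FPKM (2.87, adjusted p = 0.00024), whereas Pecam1, the adhesion protein of endothelium, reached at most 1.16 FPKM. Ptprc, which encodes the leukocyte antigen CD45, reached at most 0.0107 FPKM in CD49f-high. Of 18 immune cell markers 1 reached the filter, and it was not called. Of 17 tested dermal papilla markers 6 were higher and 7 lower, of 8 tested adipocyte markers 2 were higher (4 without CD49f-high 3) and none lower, and of 3 tested cartilage and bone markers 1 was higher. In bulk samples, a change in the number of cells of a type and a change in RNA per cell cannot be told apart, and the part of these cell types in the results below was not tested gene by gene.

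The 3 CD49f-high libraries were not alike. Among the 1173 rows called higher by at least 1 log2 unit, CD49f-high 1 was the highest of the 3 in 551 and the lowest in 376, and it lay more than 2-fold below both others in 111 and more than 2-fold above both in 50. CD49f-high 2 was the lowest in 544 of these rows and the highest in 238. For the 14 Schwann cell markers called higher, CD49f-high 1 was the lowest library in 13 and more than 2-fold below both others in 12. Smooth muscle markers ran the other way, with CD49f-high 1 the highest library in 12 of 13. Of the 13 pericyte markers called higher, CD49f-high 2 was the lowest library in 12 and CD49f-high 1 the highest in 10. Adipoq, the fat cell hormone adiponectin, stood at 132, 2.30 and 1.16 FPKM in CD49f-high 1 to 3 against 0.0623 to 0.159 in CD49f-neg, so that it was high in 1 library, and its difference of 3.16 missed the threshold (adjusted p = 0.118). CD49f-high 3 was the lowest library for 11 of 11 keratinocyte markers.

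**Figure D1:**
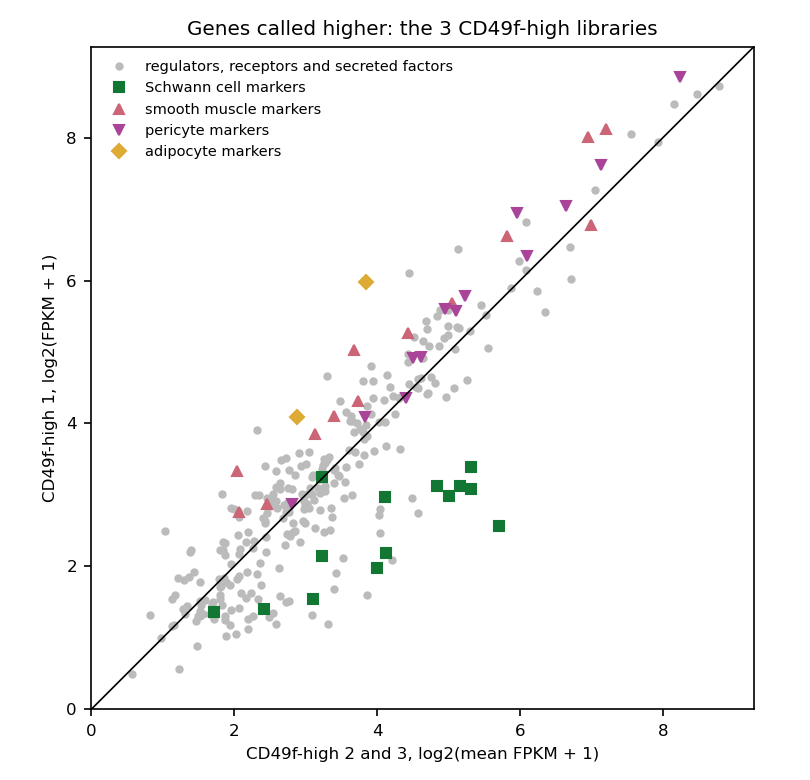
Level in CD49f-high 1 (vertical axis) against the mean of CD49f-high 2 and 3 (horizontal axis), as log2(FPKM + 1) with the FPKM averaged before the logarithm, for genes that rose in CD49f-high. Grey points are transcription factors, receptors and secreted factors outside the marker lists, coloured symbols are cell type markers, and the line marks equal levels. Most Schwann cell markers lie below the line (CD49f-high 1 lowest in 13 of 14) and smooth muscle markers mostly above it (CD49f-high 1 highest in 12 of 13).

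Across genes, limma called 4541 rows at an adjusted p under 0.05, which is 22.1% of the rows tested. Of these, 2844 (13.9%) were higher and 1697 (8.27%) lower in CD49f-high, and 6972 rows had an unadjusted p under 0.05. The split depended on the scaling: it became 2414 higher and 2270 lower after median-of-ratios scaling and 2186 higher and 2315 lower after quantile normalization. The median difference over all rows was 0.07 as deposited and -0.02 and -0.04 after these scalings, a shift of about 0.1 against which the lists below should be read. Among rows with a symbol, 22.7% were called, 15.3% higher and 7.37% lower, with a median difference of 0.09. In 25.5% of them all 3 CD49f-high libraries lay above all 3 CD49f-neg libraries, and in 12.9% below. Nearly all called rows were free of overlap between the gates, 2827 of the 2844 higher and 1687 of the 1697 lower.

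The 3 classes of genes were counted beside these shares. Of 562 transcription factors and cofactors listed, 364 were tested, and 101 were higher and 68 lower (46.4% called, median difference 0.15). Of 499 receptors listed, 278 were tested, and 101 were higher and 66 lower (60.1% called, median 0.20). Of 587 secreted factors listed, 356 were tested, and 95 were higher and 101 lower (55.1% called), with a median of 0.04 that turned to -0.08 and -0.09 after median-of-ratios scaling and quantile normalization and to -0.04 and -0.05 without CD49f-neg 3 or CD49f-high 2. Leaving out the genes of the cell type marker lists kept 947 tested genes of the 3 classes, of which 274 were higher and 223 lower. The counts by gene family below keep the marker genes. A gene could enter the test through the gate in which it was high, so these counts over tested genes are a description and not a test of a class. The replicate block raised the counts of all rows to 4037 higher and 2371 lower.

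**Figure D2:**
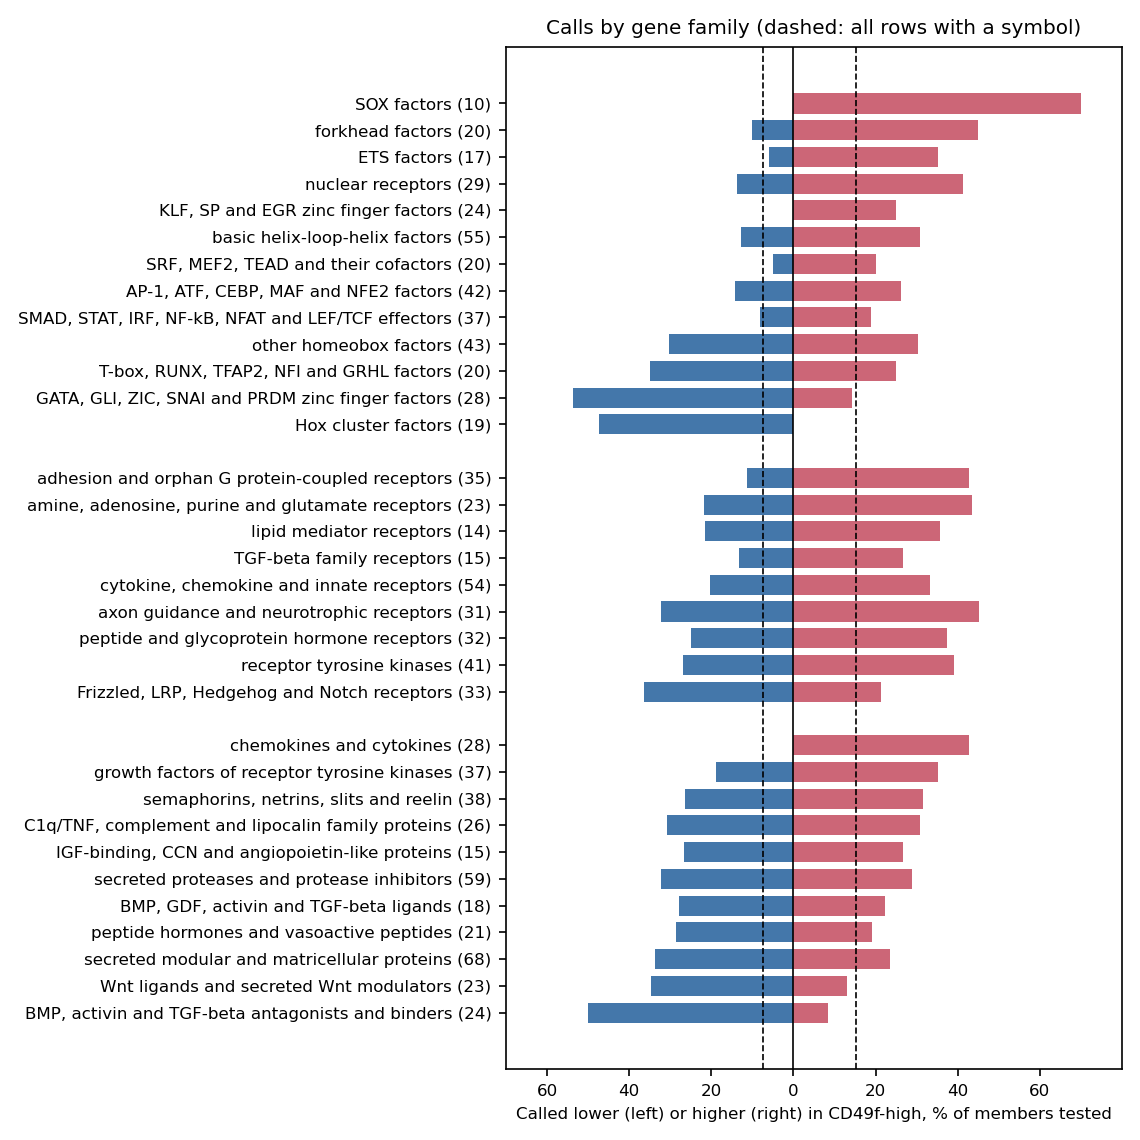
Share of the tested members of each gene family called lower (blue, left) or higher (red, right) in CD49f-high, in percent, with the number tested in parentheses and dashed lines at the shares over all rows with a symbol (7.37% lower, 15.3% higher). SOX factors, the KLF, SP and EGR zinc finger factors, and chemokines and cytokines have calls on the higher side alone, Hox cluster factors on the lower side alone. Genes of the cell type marker lists are kept in these counts.

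The transcription factor with the highest difference was Epas1. Epas1, the hypoxia-inducible factor 2α of perivascular and endothelial cells (chromosome 17, 86753907 to 86833410), stood at 47.1, 25.5 and 36.0 FPKM in CD49f-high 1 to 3 and at 0.437, 0.223 and 0.131 in CD49f-neg, a rise of 4.85 (SE 0.24, adjusted p = 4.21e-06). Foxs1, a forkhead factor of perivascular and neural crest cells (chromosome 2, 152931898 to 152933208), stood at 29.3, 24.6 and 23.0 against 0.0909, 0.190 and 0.238 FPKM, a rise of 4.50 (SE 0.16, adjusted p = 1.34e-06). Both genes were below 0.5 FPKM in each CD49f-neg library and above 20 in each CD49f-high library. Meox2, a mesodermal homeobox factor (chromosome 12, 37108540 to 37179534), stood at 23.4, 33.7 and 41.1 against 1.62, 2.53 and 2.63 FPKM, a rise of 3.35 (SE 0.24, adjusted p = 1.64e-05). The related orphan nuclear receptors Nr2f2 and Nr2f1 (COUP-TFII and COUP-TFI) rose together. Nr2f2 (chromosome 7, 70351944 to 70366735) stood at 16.5, 14.7 and 21.4 against 1.16, 1.47 and 1.15 FPKM (3.02, SE 0.20, adjusted p = 9.27e-06). Nr2f1 (chromosome 13, 78188973 to 78199757) stood at 7.58, 5.61 and 9.02 against 0.0836, 0.125 and 0.0636 FPKM (2.93, SE 0.17, adjusted p = 5.06e-06). Tbx2, a T-box repressor (chromosome 11, 85832551 to 85841948), stood at 9.69, 6.54 and 10.4 against 0.237, 0.306 and 0.217 FPKM (2.96, SE 0.17, adjusted p = 5.31e-06). In none of these 6 genes did the groups overlap, which was a condition for naming them.

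Of 20 tested forkhead factors 9 were higher and 2 lower (median 0.62). Beside Foxs1, Foxf1, a factor of mesenchyme next to epithelium and endothelium, stood at 6.98, 3.23 and 4.89 against 0.0304 to 0.263 FPKM (2.37, adjusted p = 6.04e-05). Foxc2 and Foxc1, a pair of paralogues with roles in vessel development, rose by 1.87 and 1.36 (adjusted p = 4.7e-05 and 6.78e-05) to 2.96 to 4.57 and 1.78 to 1.98 FPKM. Foxo6 was the family's strongest fall, from 4.56, 8.93 and 8.71 to 1.72, 2.60 and 1.83 FPKM (-1.43, adjusted p = 0.00222). Of 10 tested SOX factors 7 were higher and none lower (median 1.53), with Sox10 and Sox2 among the 7 also on marker lists. The SOXD members Sox13, Sox5 and Sox6, which lack a transactivation domain of their own, all rose: Sox13 to 6.84 to 9.47 FPKM (2.40, adjusted p = 2.4e-05), Sox5 to 2.43 to 2.91 FPKM (1.83, adjusted p = 7.2e-06) and Sox6 to 1.78 to 2.43 FPKM (1.60, adjusted p = 4.55e-05). Sox5 and Sox6 were at most 0.0200 FPKM in each CD49f-neg library. The glial and melanocytic factor Sox10 stood at 7.46, 32.5 and 44.9 FPKM in CD49f-high 1 to 3, the low value being in the library with low Schwann cell markers.

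The same low value in CD49f-high 1 was seen in Tfap2b, Tfap2a and Pou3f1. Tfap2b, an AP-2 factor of neural crest derivatives, stood at 1.45, 4.36 and 4.88 FPKM against at most 0.0169 in CD49f-neg (2.08, adjusted p = 0.000939). Tfap2a, its paralogue, stood at 1.27, 2.92 and 2.78 against 0.0481 to 0.0944 FPKM (1.60, adjusted p = 0.000557). Pou3f1, a POU factor of promyelinating Schwann cells, stood at 1.50, 6.60 and 8.37 against 0.257 to 0.686 FPKM (2.01, adjusted p = 0.00703); it was chosen after its values were seen. In all 3 genes CD49f-high 1 lay more than 2-fold below both other CD49f-high libraries and still above every CD49f-neg library. Over all transcription factors called higher, 11 of 101 had CD49f-high 1 more than 2-fold below both others and 1 had it more than 2-fold above.

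Of 55 tested basic helix-loop-helix factors 17 were higher and 7 lower, with a median of 0.05 that turned to -0.06 after quantile normalization, and 11 were lower with the replicate block. Ebf2, an early B cell factor with roles in fat and perivascular precursors, stood at 4.49, 4.80 and 6.58 against 0.0820 to 0.159 FPKM (2.49, adjusted p = 1.33e-05). Heyl, a repressor induced by Notch signalling, stood at 13.1, 13.2 and 13.9 against 1.20 to 2.63 FPKM (2.25, adjusted p = 0.00185). Of 29 tested nuclear receptors 12 were higher and 4 lower (median 0.51), among them Nr1d1, the circadian repressor REV-ERBα, which rose from 1.39 to 1.75 to 6.48 to 9.75 FPKM (1.80, adjusted p = 0.00015). Of 24 tested KLF, SP and EGR zinc finger factors 6 were higher and none lower (median 0.24), and 3 were higher after quantile normalization or without CD49f-neg 3. Egr3, an immediate early factor, stood at 11.5, 21.5 and 16.6 against 2.74, 2.17 and 1.27 FPKM (2.51, adjusted p = 0.000134). Of 17 tested ETS factors 6 were higher and 1 lower, with Ets1 at 7.09 to 8.69 against 1.91 to 4.03 FPKM (1.32, adjusted p = 0.00113).

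Cebpd, Irf1, Stat3 and Stat6 were also higher. Cebpd, an acute phase factor, stood at 87.9, 82.3 and 124 against 27.3, 23.9 and 12.95 FPKM (2.18, SE 0.26, adjusted p = 0.000301). Irf1, which interferon induces, stood at 38.3, 36.5 and 40.3 against 16.3, 7.64 and 6.86 FPKM (1.90, adjusted p = 0.000574). Stat3 and Stat6, which act below the interleukin 6 and interleukin 4 and 13 receptors, stood at 10.5 to 15.3 against 3.89 to 7.04 FPKM (1.21, adjusted p = 0.00176) and at 18.5 to 19.7 against 9.38 to 11.9 FPKM (0.85, adjusted p = 0.000867). Of the lists these genes belong to, 11 of 42 AP-1, ATF, CEBP, MAF and NFE2 factors were higher and 6 lower, and 7 were higher in the fit on the 6 libraries compared or without CD49f-neg 2, CD49f-neg 3 or CD49f-high 1. Of 37 SMAD, STAT, IRF, NF-kB, NFAT and LEF/TCF effectors 7 were higher (18.9%) and 3 lower (8.11%), near the 15.3% and 7.37% of rows with a symbol. These counts became 15 and 5 with the replicate block and 7 and 6 after median-of-ratios scaling, and 12 were higher without CD49f-neg 1. Fos, an immediate early gene that tissue dissociation is known to induce and that was chosen after its values were seen, stood at 423, 480 and 403 against 283, 303 and 195 FPKM (0.76, adjusted p = 0.0157, and 0.0521 without CD49f-high 2). The part of such induction in these rises was not tested.

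**Figure D3:**
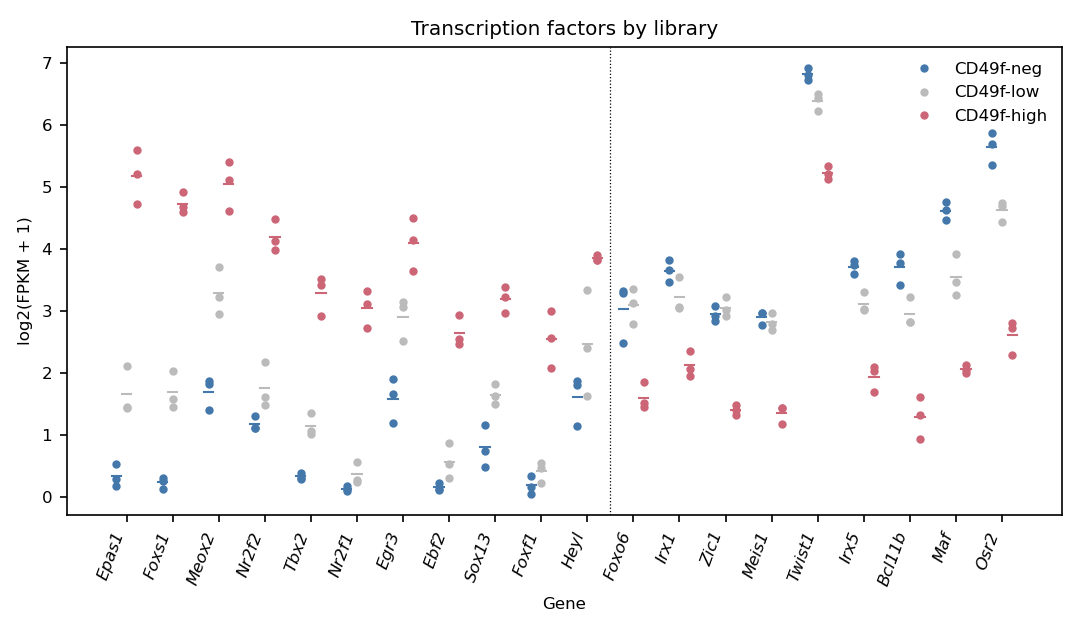
Levels by library, as log2(FPKM + 1), of the transcription factors named in the text among the 12 that rose most and the 12 that fell most by log2 difference, marker lists aside and with a gate mean reaching 5 FPKM. Points are libraries (blue CD49f-neg, grey CD49f-low, red CD49f-high), short bars are means of 3, and the dotted line separates genes higher in CD49f-high from genes lower. No red point overlaps the blue points of its gene, which the rule that chose these genes required.

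Osr2, Maf, Bcl11b and Twist1 were among the transcription factors that fell. Osr2, an odd-skipped zinc finger factor of connective tissue (chromosome 15, 35296098 to 35303304), stood at 5.60, 5.94 and 3.88 FPKM in CD49f-high 1 to 3 and at 39.6, 50.5 and 57.5 in CD49f-neg (-3.03, SE 0.18, adjusted p = 5.75e-06). Maf, a basic leucine zipper factor (chromosome 8, 115682942 to 115707794), stood at 3.12, 3.35 and 3.00 against 23.8, 21.0 and 25.8 FPKM (-2.56, SE 0.16, adjusted p = 8.86e-06). Both genes were lower in every CD49f-high library than in any CD49f-neg library, as the rule for naming them required. Bcl11b, a zinc finger factor (chromosome 12, 107910403 to 108003602), stood at 1.49, 2.03 and 0.909 against 9.63, 12.7 and 14.1 FPKM (-2.42, SE 0.20, adjusted p = 3.5e-05). Twist1, a helix-loop-helix factor of dermal and mesenchymal identity, was the most abundant of these factors and remained so in both gates, at 39.5, 33.8 and 36.0 against 105, 111 and 119 FPKM (-1.59, SE 0.12, adjusted p = 1.67e-05).

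Hox genes, which encode position along the body axis, had calls on the lower side alone. Of 39 Hox cluster genes 19 were tested, 4 of them on rows of 2 or more genes, and none was higher and 9 were lower (median -0.61). In 16 of the 19 all CD49f-high libraries lay below all CD49f-neg libraries, against 12.9% of rows with a symbol. Hoxb9 stood at 1.58, 2.63 and 3.39 against 7.44, 7.07 and 7.44 FPKM (-1.27, adjusted p = 0.0018), and Hoxc8 at 3.76, 3.58 and 2.57 against 7.40, 8.77 and 10.8 FPKM (-1.21, adjusted p = 0.000804). Of 28 tested GATA, GLI, ZIC, SNAI and PRDM zinc finger factors 4 were higher (2 without CD49f-neg 3 or CD49f-high 3) and 15 lower (median -0.50), including Zic1 (1.49 to 1.78 against 6.10 to 7.47 FPKM, -1.54, adjusted p = 2.3e-05). Other homeobox factors had 13 higher (8 without CD49f-neg 3) and 13 lower of 43 tested and a median of 0.09 that turned to -0.00 and -0.01 after the 2 scalings. On the lower side stood the Iroquois factors Irx5 (2.22 to 3.25 against 11.1 to 12.99 FPKM) and Irx1 (2.87 to 4.08 against 10.01 to 13.1 FPKM) and the TALE factor Meis1 (1.26 to 1.71 against 5.80 to 6.79 FPKM), which fell by 1.78, 1.53 and 1.55 (adjusted p = 2.33e-05, 0.000195 and 2.71e-05). The proline and acidic rich leucine zipper factor Hlf fell from 4.19 to 4.96 to 0.332 to 0.589 FPKM (-1.89, adjusted p = 8.58e-06). Of 20 tested T-box, RUNX, TFAP2, NFI and GRHL factors 5 were higher and 7 lower (median -0.10).

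Smooth muscle genes are known to be driven by serum response factor, which binds the CArG box (CC, then 6 bases that are each A or T, then GG, a pattern that reads the same on both strands) with cofactors such as myocardin. Of 20 tested genes of the SRF, MEF2 and TEAD group and their cofactors 4 were higher (20%) and 1 lower (5%), with a median of 0.17. Over all rows with a symbol the shares were 15.3% and 7.37%, so the counts lie near them. Srf, which encodes serum response factor, was not among the members called. Myocd, which encodes myocardin, stood at 5.98, 2.38 and 3.58 FPKM against 0.748, 1.68 and 0.976 (1.18, SE 0.26, adjusted p = 0.00908). The LIM domain protein genes Ldb3 and Fhl2 stood at 3.46, 2.71 and 2.62 against 0.142, 0.175 and 0.104 FPKM (1.78, SE 0.16, adjusted p = 5.31e-05) and at 6.01, 11.2 and 7.39 against 4.12, 2.55 and 1.32 FPKM (1.36, SE 0.29, adjusted p = 0.00865). Vgll3, a TEAD cofactor, was the member that fell, from 5.31 to 5.48 to 1.28 to 3.16 FPKM (-1.003, adjusted p = 0.0104). The promoters of these genes and of the smooth muscle markers were searched for the CArG box. The 3 windows of 60 bases shown were picked because they hold it and their genes were called higher. They were taken from RefSeq on GRCm38.p6, run 5′ to 3′ on the gene's strand and have the CArG box in capitals.
Ldb3, minus strand, chr14:34588682-34588741: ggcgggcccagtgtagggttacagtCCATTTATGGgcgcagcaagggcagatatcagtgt
Fhl2, minus strand, chr1:43196823-43196882: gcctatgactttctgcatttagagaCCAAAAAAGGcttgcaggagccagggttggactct
Myl9, plus strand, chr2:156775278-156775337: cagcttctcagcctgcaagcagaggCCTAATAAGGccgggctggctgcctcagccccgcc
The first base of the CArG box lies at -35 from the start of Ldb3, -96 from that of Fhl2 and -161 from that of Myl9, the regulatory light chain gene of smooth muscle, chosen for its promoter, which stood at 109, 121 and 133 against 16.0, 30.0 and 21.0 FPKM (2.43, SE 0.23, adjusted p = 7.99e-05). Within 250 bases before the start, 1.47% of 32851 RefSeq starts hold the pattern. Of the genes called higher that matched an entry, 32 of 1257 hold it (2.55%), and 17 of 570 called higher by at least 1 log2 unit (2.98%), against 8 of 617 called lower (1.3%) and 109 of 7790 tested genes (1.4%). Among 12 smooth muscle markers with an entry 2 hold it, and among 17 tested genes of the SRF, MEF2 and TEAD group 4 do. Both sets were taken whatever the call of the member, and the smooth muscle set also without regard to the filter. A match is a description of the letters and not of binding, and 7790 of the 11890 tested rows with 1 symbol had a promoter entry.

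Receptors for vasoactive signals set the tone of the vessel wall. Of 23 tested receptors for amines, adenosine, purines and glutamate 10 were higher and 5 lower (median 0.44). Adra2a, the α2A-adrenergic receptor for noradrenaline (chromosome 19, 54045182 to 54048982), stood at 49.6, 31.0 and 54.3 FPKM in CD49f-high 1 to 3 and at 0.823, 0.579 and 0.436 in CD49f-neg (4.80, SE 0.21, adjusted p = 3.09e-06). Htr7, a serotonin receptor, stood at 3.09, 3.20 and 2.59 FPKM and was listed at 0 in 2 CD49f-neg libraries and at 0.0225 in the third (1.97, adjusted p = 6.01e-06). P2rx1, an ATP-gated channel of smooth muscle, stood at 4.04, 2.86 and 2.47 against at most 0.0279 FPKM (2.01, adjusted p = 3.05e-05). All 3 receptors were low in every CD49f-neg library. Of 32 tested peptide and glycoprotein hormone receptors 12 were higher and 8 lower (median 0.29). Avpr1a, the vasopressin V1a receptor (chromosome 10, 122448499 to 122453453), stood at 38.8, 16.2 and 33.9 against 3.67, 3.38 and 2.35 FPKM (2.82, SE 0.29, adjusted p = 0.000119). Calcrl, part of the receptors for calcitonin gene-related peptide and adrenomedullin, rose from 0.305 to 0.487 to 4.59 to 9.21 FPKM (2.44, adjusted p = 3.59e-05), and Npy1r, a neuropeptide Y receptor, from 0.180 to 0.528 to 4.24 to 5.36 FPKM (2.05, adjusted p = 2.11e-05).

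Ptgir, the prostacyclin receptor (chromosome 7, 16906490 to 16910905), stood at 27.0, 10.9 and 17.2 FPKM against 1.49, 1.02 and 1.09 (3.06, SE 0.27, adjusted p = 5.04e-05). S1pr3, a sphingosine 1-phosphate receptor, stood at 112, 54.3 and 79.2 against 21.0, 14.7 and 17.7 FPKM (2.09, SE 0.26, adjusted p = 0.000346). Ptgfr, the prostaglandin F receptor, moved the other way, at 0.811, 0.574 and 0.306 against 6.11, 7.77 and 7.90 FPKM (-2.41, SE 0.15, adjusted p = 8.65e-06). Of 14 tested lipid mediator receptors 5 were higher and 3 lower, and 5 and 6 after either scaling or with the replicate block, with 5 lower without CD49f-neg 3 or CD49f-high 2. Procr, the protein C receptor (chromosome 2, 155751117 to 155755471), stood at 67.8, 20.4 and 21.1 against 1.48, 0.425 and 0.226 FPKM (4.29, SE 0.43, adjusted p = 0.000111), with CD49f-high 1 more than 2-fold above both others. Tnfrsf21 (death receptor 6) and Il13ra1 (a subunit of the interleukin 13 receptor) stood at 39.2, 25.6 and 43.2 against 3.72 to 5.14 FPKM (2.79, adjusted p = 1.66e-05) and at 42.1, 19.9 and 29.6 against 3.10 to 4.39 FPKM (2.74, adjusted p = 3.9e-05). Of 54 tested cytokine, chemokine and innate receptors 18 were higher and 11 lower (median 0.28), and CD49f-high 1 was the highest library in 12 of the 18.

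Of 35 tested adhesion and orphan G protein-coupled receptors 15 were higher and 4 lower (median 0.32). The odorant receptor genes Olfr558 and Olfr78, whose products are known outside the nose as sensors in vessels and other tissues, lie next to each other on chromosome 7 (102702331 to 102712054 and 102740721 to 102759471). Olfr558 stood at 7.94, 4.45 and 5.99 FPKM and Olfr78 at 7.03, 3.55 and 6.08 (2.79 and 2.67, adjusted p = 1.09e-05 and 3.12e-05). In CD49f-neg 1 and 3 both were listed at 0, and in CD49f-neg 2 they stood at 0.0262 and 0.0109. Adgrf5, an adhesion receptor, stood at 10.3, 3.77 and 6.80 against 0.0439 to 0.0940 FPKM (2.81, adjusted p = 7.03e-05). Gpr17, an orphan receptor best known from the oligodendrocyte lineage, stood at 5.72, 21.7 and 23.8 against at most 0.0295 FPKM (3.93, SE 0.41, adjusted p = 0.000143), and Plxnb3, a plexin, at 1.28, 8.86 and 8.93 against at most 0.0107 FPKM (2.59, SE 0.47, adjusted p = 0.00345). Both of these had CD49f-high 1 more than 2-fold below the others, as Schwann cell markers did.

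Of 31 tested axon guidance and neurotrophic receptors 14 were higher and 10 lower (median 0.33). CD49f-high 1 was the lowest library in 10 of the 14, against 830 of all 2844 rows called higher. The 14 include the Schwann cell markers Gfra3, Ngfr and L1cam, all lowest there. Plxnd1, the plexin of endothelial guidance, was even across libraries at 14.8, 11.8 and 14.8 against 2.16 to 2.57 FPKM (2.15, SE 0.12, adjusted p = 4.66e-06). Ntrk2, the receptor for brain-derived neurotrophic factor, stood at 6.03, 7.27 and 7.25 against 0.480 to 0.906 FPKM (2.16, adjusted p = 4.53e-05). Falling members included Plxna4, a semaphorin co-receptor (1.57, 2.90 and 3.14 against 8.83, 12.8 and 13.3 FPKM, -1.85, adjusted p = 0.000339), Robo1, a Slit receptor (2.04 to 2.49 against 7.57 to 9.86 FPKM, -1.56, adjusted p = 5.04e-05), and Rtn4r, the Nogo receptor (1.10, 1.73 and 1.26 against 6.66, 16.0 and 13.8 FPKM, -2.40, adjusted p = 0.000169). Of 41 tested receptor tyrosine kinases and related proteins 16 were higher and 11 lower (median 0.21). Epha2, an ephrin receptor, rose to 5.08 to 7.45 from 0.964 to 1.52 FPKM (1.73, adjusted p = 5.05e-05). Fgfr4, a fibroblast growth factor receptor (chromosome 13, 55152640 to 55168759), fell to 1.86, 0.760 and 0.998 from 11.6, 14.3 and 17.4 FPKM (-2.82, SE 0.29, adjusted p = 0.000118). Ptk7, a Wnt co-receptor without kinase activity, fell to 28.0, 23.2 and 30.0 from 97.4, 112 and 118 FPKM (-1.98, SE 0.15, adjusted p = 2.2e-05).

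Pth1r, Lgr5 and the Hedgehog co-receptors Gas1 and Boc were among the receptors that fell. Pth1r, the receptor for parathyroid hormone and its related peptide (chromosome 9, 110722085 to 110747145), stood at 11.2, 10.96 and 6.57 FPKM in CD49f-high 1 to 3 and at 65.5, 84.7 and 88.8 in CD49f-neg (-2.95, SE 0.20, adjusted p = 1.02e-05). Lgr5, an R-spondin receptor (chromosome 10, 115450311 to 115587780), stood at 0.758, 1.01 and 0.906 against 7.11, 14.9 and 10.7 FPKM (-2.60, SE 0.23, adjusted p = 5.28e-05). Not all R-spondin and Wnt receptors fell: Lgr4 and Lgr6, R-spondin receptors like Lgr5, rose by 0.84 and 0.89 (adjusted p = 0.000726 and 0.0212), and the Wnt receptors Fzd4 and Fzd7 by 0.97 and 0.40 (adjusted p = 0.000574 and 0.0201). The call of Fzd7 was lost after both scalings (adjusted p = 0.0801 and 0.0805), and those of Fzd7 and Lgr6 were lost in some fits without 1 library (adjusted p of 0.0645 and 0.0829 for Fzd7 without CD49f-high 3 or CD49f-neg 3, and 0.0515 to 0.0743 for Lgr6 without CD49f-neg 1, CD49f-neg 2 or CD49f-high 2). The Hedgehog co-receptors Gas1 and Boc stood at 48.9, 37.3 and 48.0 against 159, 168 and 202 FPKM (-1.96, SE 0.19, adjusted p = 8.68e-05) and at 3.75, 4.65 and 4.66 against 12.3, 17.0 and 15.7 FPKM (-1.57, SE 0.16, adjusted p = 9.97e-05). Other Hedgehog pathway genes, chosen after their values were seen, also fell. Ptch1, the Hedgehog receptor, and the co-receptor Cdon fell to 10.8 to 15.2 from 30.9 to 39.1 FPKM (-1.38, adjusted p = 0.000272) and to 4.41 to 7.11 from 15.6 to 19.5 FPKM (-1.46, adjusted p = 0.000299), and the effectors Gli2 and Gli3 by 0.72 and 0.64 (adjusted p = 0.00885 and 0.00705). Gli1, a target of the pathway, stood at 15.7, 31.7 and 20.9 against 34.0, 51.5 and 52.9 FPKM (-1.02, adjusted p = 0.0195), and leaving out CD49f-neg 2, CD49f-neg 3, CD49f-high 1 or CD49f-high 3 moved its adjusted p to 0.0549 to 0.0757. Of the 33 tested Frizzled, LRP, Hedgehog and Notch receptors 7 were higher and 12 lower, with a median of 0.02 that turned to -0.09 and -0.11 after the scalings and to between -0.06 and -0.03 without CD49f-neg 1, CD49f-neg 3, CD49f-high 2 or CD49f-high 3. The higher count was 12 with the replicate block and 11 without CD49f-high 1.

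**Figure D4:**
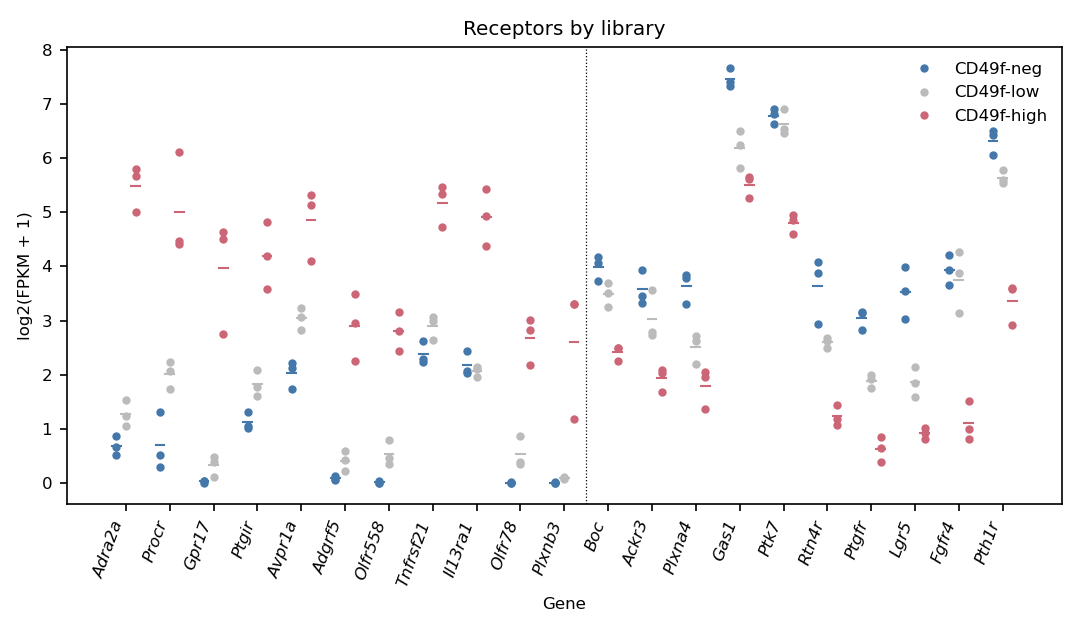
Levels by library, as log2(FPKM + 1), of the receptors named in the text among the 12 that rose most and the 12 that fell most by log2 difference, marker lists aside and with a gate mean reaching 5 FPKM. Points are libraries (blue CD49f-neg, grey CD49f-low, red CD49f-high), short bars are means of 3, and the dotted line separates higher from lower genes. Gpr17 and Plxnb3 show 1 low red point (CD49f-high 1) and Procr 1 high red point (CD49f-high 1).

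Notch3, Notch1 and the ligand gene Jag1 rose, and Notch2 fell. Notch3, the Notch receptor of mural cells and one of the pericyte markers, stood at 196, 108 and 171 FPKM against 2.63, 4.42 and 3.91 (5.07, SE 0.29, adjusted p = 5e-06). Notch1 stood at 9.40, 8.94 and 10.3 against 1.92, 2.79 and 2.30 FPKM (1.67, SE 0.13, adjusted p = 2.83e-05). The ligand gene Jag1 (chromosome 2, 137081456 to 137116644) stood at 20.9, 21.3 and 21.1 against 2.31, 2.77 and 1.81 FPKM (2.76, SE 0.17, adjusted p = 7.95e-06). Notch2 stood at 17.3, 20.4 and 17.2 against 34.5, 34.3 and 31.2 FPKM (-0.83, SE 0.11, adjusted p = 0.000462). None of these 4 overlapped between gates. Nrarp, a Notch target that limits the signal, stood at 107, 30.8 and 46.9 against 0.473, 0.900 and 0.483 FPKM (5.09, SE 0.38, adjusted p = 1.89e-05).

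Secreted factors were called in both directions. Olfml2a, an olfactomedin-like matrix protein (chromosome 2, 38931978 to 38963753), stood at 46.3, 77.8 and 83.6 FPKM in CD49f-high 1 to 3 and at 0.691, 1.42 and 1.03 in CD49f-neg (5.07, SE 0.27, adjusted p = 4.66e-06). Igfbp7, which binds insulin-like growth factors and is abundant in vessels (chromosome 5, 77349240 to 77408041), was even across the gate at 246, 244 and 245 against 18.4, 26.8 and 13.6 FPKM (3.63, SE 0.30, adjusted p = 3.14e-05). Agt, angiotensinogen, the precursor of the vasoconstrictor angiotensin (chromosome 8, 124556534 to 124569706), stood at 85.8, 33.7 and 34.4 against 3.34, 2.53 and 1.21 FPKM (3.87, SE 0.36, adjusted p = 6.47e-05), with CD49f-high 1 more than 2-fold above both others. All 3 genes were higher in every CD49f-high library, which was a condition for naming them. Among the relatives of Igfbp7, Igfbp4 rose to 64.1, 99.6 and 109 from 9.42 to 13.9 FPKM (2.92, adjusted p = 0.000276) and Igfbp5 to 154, 129 and 134 from 22.3 to 24.9 FPKM (2.51, adjusted p = 2.47e-05). Htra1, a secreted protease on the same list, fell to 25.1 to 38.9 from 93.5 to 96.9 FPKM (-1.59, adjusted p = 0.000148), and the list of 15 tested IGF-binding, CCN and angiopoietin-like proteins had 4 higher and 4 lower (median -0.15, and 0.02 without CD49f-neg 1 or CD49f-neg 2), and 2 lower without CD49f-neg 2, CD49f-neg 3, CD49f-high 1 or CD49f-high 3.

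Chemokines and cytokines had rises alone. Of 77 listed, 28 were tested, and 12 were higher and none lower (median 0.88). Ccl11, eotaxin, which attracts eosinophils (chromosome 11, 82057823 to 82062955), stood at 39.7, 26.6 and 41.0 FPKM against 1.96, 1.03 and 2.23 (3.75, SE 0.30, adjusted p = 2.45e-05). Il6, interleukin 6 (chromosome 5, 30013114 to 30019981), stood at 49.6, 24.6 and 39.5 against 5.54, 2.46 and 2.47 FPKM (3.13, SE 0.29, adjusted p = 6.32e-05). Il34, a ligand of the macrophage receptor CSF1R (chromosome 8, 110741829 to 110805924), stood at 16.2, 9.90 and 13.04 against 0.396, 0.654 and 0.777 FPKM (3.11, SE 0.21, adjusted p = 1.18e-05). All 3 stood lowest in CD49f-high 2 and did not overlap with CD49f-neg, the latter being a condition for naming them. Tnfsf9, the ligand of the co-stimulatory receptor 4-1BB, stood at 10.8, 10.1 and 16.1 against 1.99, 1.88 and 1.08 FPKM (2.32, adjusted p = 0.000148). Immune cell markers summed to 3.67 to 5.67 FPKM in CD49f-high and 2.02 to 4.02 in CD49f-neg.

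Of 37 tested growth factors of receptor tyrosine kinases 13 were higher and 7 lower (median 0.14, and -0.03 without CD49f-high 1; 12 lower with the replicate block). Pdgfa and Pdgfb, the chains of platelet-derived growth factor, stood at 10.4, 7.59 and 9.44 against 0.310 to 0.506 FPKM (2.84, SE 0.13, adjusted p = 3.09e-06) and at 6.43, 5.83 and 5.56 against 0.0817 to 0.115 FPKM (2.66, SE 0.11, adjusted p = 2.55e-06). Angpt2, an angiopoietin that acts on endothelium, stood at 14.2, 11.3 and 13.9 against 0.733 to 1.29 FPKM (2.79, SE 0.16, adjusted p = 4.84e-06). Fgf1 stood at 3.91, 5.56 and 5.52 against 0.0316 to 0.0535 FPKM (2.51, SE 0.15, adjusted p = 5.68e-06). The spread within the CD49f-high libraries was small for these 4 genes beside the distance to CD49f-neg. Sema5b, a membrane semaphorin, stood at 15.2, 14.9 and 17.6 against 0.146 to 0.334 FPKM (3.75, SE 0.20, adjusted p = 4.66e-06), in a list of 38 tested semaphorins, netrins, slits, ephrins and reelin with 12 higher and 10 lower (median 0.13). Cck, cholecystokinin, stood at 4.17 to 5.22 against at most 0.237 FPKM (2.33, adjusted p = 2.28e-05).

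Of 59 tested proteases and inhibitors 17 were higher and 19 lower, with a median of 0.04 that turned to -0.06 and -0.08 after the scalings and to -0.14 and -0.08 without CD49f-high 1 or CD49f-high 3, and 11 were higher without CD49f-neg 3. Serpine2, a thrombin and plasminogen activator inhibitor (chromosome 1, 79794197 to 79861180), stood at 19.1, 15.1 and 17.1 FPKM against 1.08, 1.25 and 0.831 (3.14, SE 0.18, adjusted p = 5.68e-06), and Adamts16, a metalloprotease, at 7.04, 6.13 and 8.94 against 0.0456 to 0.219 FPKM (2.90, adjusted p = 0.000101). Cpz, a carboxypeptidase that binds Wnt proteins (chromosome 5, 35502218 to 35525698), fell to 8.09, 5.84 and 4.44 from 84.7, 63.4 and 57.6 FPKM (-3.30, SE 0.22, adjusted p = 9.88e-06). Pappa and Pappa2, proteases that cleave insulin-like growth factor binding proteins, fell to 0.472 to 0.938 from 6.74 to 9.35 FPKM (-2.39, adjusted p = 2.17e-05) and to 3.25, 2.50 and 0.905 from 18.3, 23.7 and 16.4 FPKM (-2.73, adjusted p = 8.85e-05). Crispld2, a secreted cysteine-rich protein, stood at 24.4, 7.33 and 10.3 against 0.535 to 0.759 FPKM (3.03, adjusted p = 0.000229), with CD49f-high 1 more than 2-fold above both others. Of 68 tested modular and matricellular proteins 16 were higher and 23 lower (median -0.16).

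C1qtnf3, the secreted factor with the lowest difference, an adipokine-like protein of the C1q family (chromosome 15, 10952332 to 10980150), stood at 5.46, 3.98 and 1.90 FPKM in CD49f-high 1 to 3 and at 64.5, 187 and 99.9 in CD49f-neg (-4.57, SE 0.42, adjusted p = 5.96e-05). Sfrp2, a secreted Frizzled-related protein (chromosome 3, 83766321 to 83774316), stood at 14.5, 8.55 and 6.04 against 155, 177 and 189 FPKM (-4.10, SE 0.25, adjusted p = 6.48e-06). Egfl6, an epidermal growth factor repeat protein of basement membranes (X chromosome, 166523007 to 166585720), stood at 4.93, 3.57 and 3.08 against 58.9, 72.7 and 73.4 FPKM (-3.85, SE 0.16, adjusted p = 3.09e-06). The CD49f-neg libraries were uneven for C1qtnf3 and even for the other genes. Penk, proenkephalin (chromosome 4, 4133531 to 4138819), stood at 14.5, 18.0 and 7.39 against 105, 122 and 112 FPKM (-3.07, SE 0.28, adjusted p = 6.41e-05). Mfap4, a microfibril protein (chromosome 11, 61485431 to 61488900), stood at 40.4, 40.9 and 31.2 against 204, 391 and 273 FPKM (-2.87, SE 0.22, adjusted p = 2.32e-05), and Emilin3 at 1.24 to 1.58 against 8.36 to 16.9 FPKM (-2.47, adjusted p = 8.63e-05).

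Of 24 tested BMP, activin and TGF-β antagonists and binders 2 were higher and 12 lower (median -0.41), and 4 were higher without CD49f-high 1. Grem1, a BMP antagonist, stood at 1.36, 1.39 and 0.531 against 16.4, 11.6 and 10.2 FPKM (-2.72, SE 0.26, adjusted p = 8.03e-05). Ltbp2, a latent TGF-β binding protein family member, stood at 2.43, 2.23 and 1.55 against 20.3, 30.4 and 19.8 FPKM (-2.98, SE 0.18, adjusted p = 7.1e-06). Every CD49f-high library was below every CD49f-neg library for these genes, as the rule for naming them required. The 2 members that rose were Lrrc32, which anchors latent TGF-β on the cell surface (23.2, 15.4 and 10.4 against 4.18, 2.63 and 2.87 FPKM, 1.99, adjusted p = 0.000363), and the BMP antagonist Chrdl1 (9.31, 8.83 and 7.95 against 3.49, 2.06 and 0.917 FPKM, 1.70, adjusted p = 0.00128), both named because the count was small. Inhbb, the activin βB subunit, fell to 2.30, 1.29 and 0.901 from 17.3, 17.3 and 19.4 FPKM (-2.96, SE 0.21, adjusted p = 1.37e-05), in a list of 18 tested BMP, GDF, activin and TGF-β ligands with 4 higher and 5 lower (3 lower in the fit on the 6 libraries compared or without CD49f-neg 2, CD49f-neg 3, CD49f-low 2 or CD49f-high 2). Of 23 tested Wnt ligands and secreted modulators 3 were higher and 8 lower (median -0.20), and 7 were higher without CD49f-high 1. Dkk1, an inhibitor of the Wnt co-receptors, fell to 1.96 to 2.62 from 7.54 to 10.2 FPKM (-1.58, adjusted p = 0.000201), and Wnt5a, a non-canonical ligand, rose to 8.67 to 10.4 from 5.44 to 6.27 FPKM (0.59, adjusted p = 0.011).

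**Figure D5:**
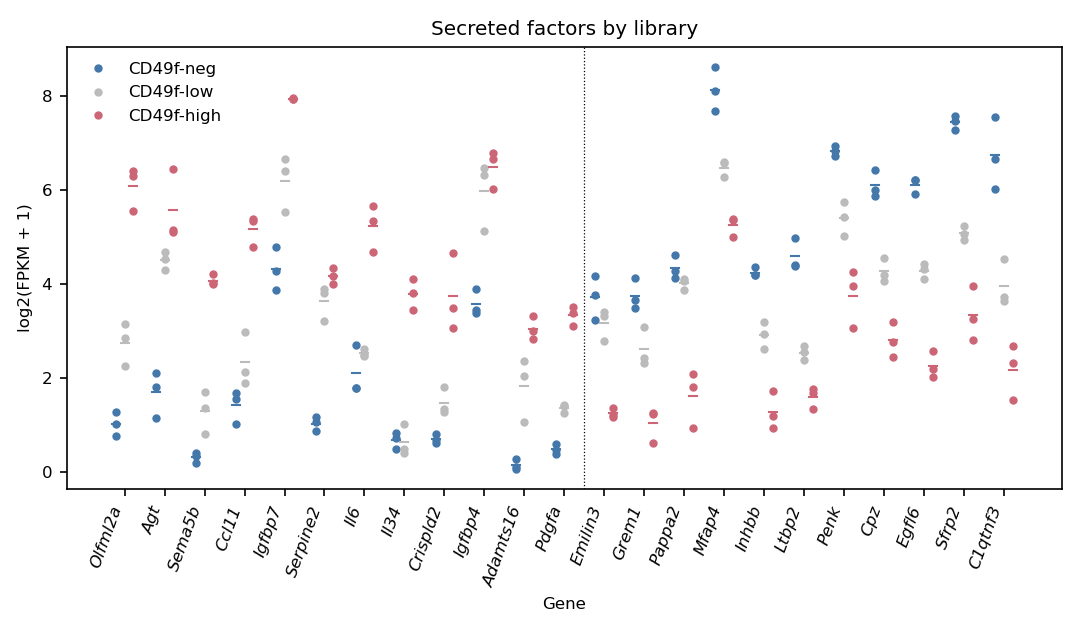
Levels by library, as log2(FPKM + 1), of the secreted factors named in the text among the 12 that rose most and the 12 that fell most by log2 difference, marker lists aside and with a gate mean reaching 5 FPKM. Points are libraries (blue CD49f-neg, grey CD49f-low, red CD49f-high), short bars are means of 3, and the dotted line separates higher from lower genes. Sfrp2, Egfl6 and Penk stand above 50 FPKM in every CD49f-neg library and below 20 in every CD49f-high library.

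Ligands and receptors known to bind each other were set side by side. Of 77 pairs, both members were tested in 58 and both were called in 28. Of all tested receptors 60.1% were called, and of all tested secreted factors 55.1%, and some genes recur in several pairs. The pair counts are therefore a description and not a result about pairing. In 11 pairs ligand and receptor were both higher in CD49f-high, among them Pdgfb with Pdgfrb, Kitl with Kit, Artn with Gfra3, Vegfa with Flt1, Bmp5 with Bmpr1b, Jag1 with Notch3, Dll1 with Notch1, Wnt5a with Fzd4, Reln with Vldlr and Agt with Agtr1a. Kitl, the ligand of the KIT receptor, stood at 32.8, 24.5 and 32.1 FPKM against 14.8, 10.9 and 9.30 (1.29, SE 0.18, adjusted p = 0.000804). Its receptor gene Kit and the Notch ligand gene Dll1 were weak in CD49f-high, at means of 1.82 and 1.52 FPKM against 0.445 and 0.527 in CD49f-neg. Both stood far higher in CD49f-low, at means of 23.1 and 12.4 FPKM. Artn, artemin, a ligand for sensory neurons and glia, stood at 1.83, 5.05 and 6.11 against 0.587 to 0.708 FPKM (1.59, adjusted p = 0.0036), and its receptor subunit Gfra3 at 6.91, 27.5 and 34.7 against at most 0.0276 FPKM (4.30, adjusted p = 0.000148), both lowest in CD49f-high 1. Vldlr was also lowest there, at 1.40, 3.19 and 3.92 FPKM in CD49f-high 1 to 3, whereas Flt1 was highest there, at 6.92, 2.97 and 2.89 FPKM. In 5 pairs both members were lower: Rspo3 with Lgr5, Nppc with Npr2, Tgfb3 with Tgfbr3, Slit2 with Robo1 and Efnb2 with Ephb4. In bulk RNA, a pair of this kind may sit in 1 cell type or in several, which cannot be told apart here.

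In the other 12 pairs the members moved in opposite directions. The ligand was higher and the receptor lower for Pdgfa with Pdgfra, Wnt5a with Ror2, Cxcl12 with Ackr3 and Pthlh with Pth1r. Pdgfra, on a row that also covers a microRNA gene, fell to 17.4, 27.3 and 24.1 from 53.0, 65.1 and 74.9 FPKM (-1.46, SE 0.18, adjusted p = 0.000351), while its ligand Pdgfa rose as given above. Pthlh, parathyroid hormone-related protein, rose to 1.46, 3.64 and 1.68 from 0.172, 0.585 and 0.0226 FPKM (1.34, SE 0.26, adjusted p = 0.00523), against the fall of Pth1r. The ligand was lower and the receptor higher in 8 pairs: Pdgfd with Pdgfrb, Edn3 with Ednrb, Ntf3 with Ntrk3, Vegfc with Flt4, Rspo1 with Lgr6, Sema3a and Sema3d each with Nrp1, and Ntn1 with Unc5b. Ednrb, an endothelin receptor and one of the melanocyte markers, stood at 10.2, 25.6 and 21.9 FPKM in CD49f-high 1 to 3 against 2.19 to 3.68 in CD49f-neg (2.23, adjusted p = 0.001). Pdgfd stood at 0.298, 0.298 and 0.280 against 2.24, 2.73 and 3.60 FPKM (-1.56, SE 0.14, adjusted p = 5.88e-05), and Pdgfrb, a pericyte marker, at 132, 76.8 and 121 against 17.3, 21.0 and 21.5 FPKM (2.37, SE 0.22, adjusted p = 5.79e-05), so that the 3 PDGF ligands named here differed in direction. The rows of Ror2, Npr2, Tgfbr3 and Nrp1 cover other genes too. Calls of Dll1, Agtr1a, Cxcl12, Ntrk3, Lgr6, Nppc, Tgfb3, Slit2 and Ephb4 were lost when single libraries were left out, and the pairs that rest on them with it.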

How the data were processed

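RNA was sequenced from 9 libraries, 3 per gate (CD49f-neg, CD49f-low, CD49f-high). The authors deposited 1 table of FPKM values per gene and library. The submitters' processing notes name FastQC, TopHat2, StringTie and GRCm38, and whether counting used strand is not given in the sources used here, so overlapping and antisense genes are uncertain. Rows with at least 1 FPKM in 3 or more libraries were tested as log2(FPKM + 1) by limma (version 3.58.1, R 4.3.3), with a mean for each gate over all 9 libraries and a mean-variance trend (Benjamini-Hochberg adjustment over 20523 rows, called at an adjusted p under 0.05). Tables and figures were made with Python 3.11.15, numpy 2.4.6, pandas 2.3.3 and matplotlib 3.10.9. FPKM hold no counts, and depth was read from the spacing of low values.

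The members and gene lists were chosen with earlier results of these data known. Of 1782 listed genes 1745 matched by symbol and 12 by an older symbol. Genes were named by rule: Itga6; the 10 highest and 10 lowest differences over all rows (gate mean reaching 10 FPKM) and the 12 highest and 12 lowest per class outside the marker lists (reaching 5 FPKM), with 1 symbol and no overlap; up to 4 called members per list by adjusted p; and both members of called ligand and receptor pairs. The text and figures name a part of these and the others are not reported here, and Pecam1, Ptprc, Adipoq, Myl9, Pmp22, Myod1, Lgr4, Fzd7, Notch2 and genes said to be chosen later fall outside the rule. Same-numbered CD49f-high and CD49f-neg libraries deviated together (r across rows 0.272, 0.269 and 0.252, against -0.223 to 0.0121 for other pairs), so the replicate number was also fitted as a block. On simulated data for this comparison, 200 of 20523 rows were changed. Of 2-fold changes 68% were recovered and of 4-fold changes 98%, and 5.14% of calls were false. In the deposited data 4541 rows were called, far more than the 200 changed in the simulation. These shares therefore hold for the simulated setting alone and do not give the power or the false share of the calls reported here. The test was repeated with a pseudocount of 0.1, without the filter, with a filter at 5 FPKM, and with median-of-ratios scaling, quantile normalization, the 6 libraries alone, the block, each library left out, and a call rule that adds 1 log2 unit. Promoter sequences are from RefSeq on GRCm38.p6.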

Additional observations from a re-analysis of the deposited data

How the results depend on the processing

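With a filter at 5 FPKM, which leaves fewer rows to test, limma called 1175 rows higher and 736 lower, with 64 transcription factors, 53 receptors and 60 secreted factors higher. Asking for 1 log2 unit beside the adjusted p left 1173 rows higher and 680 lower, with 60 transcription factors higher and 34 lower, 40 receptors lower and 65 secreted factors lower. Leaving out 1 library at a time gave 1910 to 2980 rows higher and 1249 to 1673 lower. The fewest higher calls came without CD49f-neg 3, and the cause was not tested. The fit with the replicate number as a block called 4037 rows higher and 2371 lower, and it changed no call among the 165 called genes followed by name.

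Of those 165 genes, 142 also differ by 1 log2 unit and 23 do not. Under the other alternatives in which they were tested 153 kept their call, and none of the 165 reversed. The call was lost in at least 1 of these for Agtr1a, Cxcl12, Dll1, Ephb4, Fos, Fzd7, Gli1, Lgr6, Nppc, Ntrk3, Slit2 and Tgfb3. Adipoq passed the threshold with a pseudocount of 0.1 (5.21, limma adjusted p = 0.0327). With 3 libraries per gate, the precision is limited by their number, and differences of genes near 1 FPKM rest on few fragments.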
